A study of Arabidopsis thaliana with 4 samples.

Results

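The values described here come from 126 array probes whose annotation lists at least 2 genes of Arabidopsis thaliana and whose signal was at least 8-fold lower in apetala3 inflorescences than in wild-type inflorescences. They were chosen from 7333 multi-gene probes measured on at least 3 of 4 arrays, of which 128 (1.75%) had a mean log2 ratio of -3 or lower with a value below 0 on each measured array. The 2 probes listing the pollen genes VGD1 and VGDH1 were left out by name. The 126 probes list 106 different sets of genes, out of 5576 sets measured in this way, and 229 genes in all. Because the log2 ratio itself chose these probes, their values are given as a description and without a test, and nothing is read from the share of 1.75%. The same rule was passed by 83 of 5662 probes listing 1 gene (1.47%), by 209 of 12925 probes with no gene listed (1.62%), by 420 of all 25920 measured gene probes (1.62%) and by 0 of 179 empty spots. Means of the empty spots ran from -2.91 to 2.90 with a median of 0.53, so the lowest lay just short of the threshold.

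The study set total RNA of apetala3 inflorescences against total RNA of wild-type inflorescences, both hybridised to each of 4 arrays. The apetala3 RNA was in channel 1 on arrays 1 and 3 and in channel 2 on arrays 2 and 4. The apetala3 allele, the accession and age of the plants, their growth conditions and whether the arrays held separate plants are all unstated in the labels. Each value printed here sets apetala3 over wild type on the log2 scale, a direction called likely because it rests on the tapetum and pollen wall genes described further on, and every value can be read with its sign turned.

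The MADS-box protein APETALA3 acts with PISTILLATA to make petals and stamens. Flowers of the mutant carry sepals and carpels in those positions. Stamens make pollen, inside anthers lined by the nutritive tapetum, and the pollen grain stores transcripts for proteins that remodel the pectin-rich wall of the pollen tube, move sugars and ions and sense the state of the growing tip. Many such genes belong to families of close copies, and a probe that pairs with several copies reports a mixture of their transcripts. A ratio from such a probe therefore belongs to the set of genes listed and to no single gene of it.

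The 126 probes had mean log2 ratios between -5.81 and -3.001 with a median of -3.92, which is 15.1-fold lower in apetala3 (range 8.01-fold to 56.1-fold). The median of all measured multi-gene probes was 0.10. In inflorescence RNA, fewer cells of a type and less RNA per cell cannot be told apart. Means of -4 or lower were found for 60 probes, and means of -5 or lower for 12. Another 41 probes lay between -3.5 and -3. At the other end of the scale, 0 of 7333 multi-gene probes had a mean of 3 or higher (0%), and the highest mean was 2.74. That count was 15 when values at the 100-fold limit of the deposited scale were kept. All 4 arrays measured 118 of the probes and 3 arrays measured the other 8. Of those 8, 7 lacked a value because it stood at the lower limit, and 1 because the deposited cell was blank.

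Array 4 gave the smallest differences. The median of the member probes was -4.12 on array 1, -3.85 on array 2, -4.57 on array 3 and -3.08 on array 4. Of the 118 probes measured on all 4 arrays, 102 had their highest value on array 4, and 74 had their lowest on array 3. Array 4 was lowest for 0 of them. The spread of single probes over arrays had a median SD of 0.68 (range 0.20 to 1.53), and single values ran from -6.53 to -1.40. A value of -2 or lower on every measured array was found for 119 of the 126 probes.

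The lowest of the 106 gene sets was AT3G28810 with AT3G28820, a pair of directly neighbouring genes. Its member probe was at -6.52, -5.93, -6.25 and -4.49 on arrays 1 to 4, with a mean of -5.80 ± 0.90 (SD, n = 4). A further probe of the pair had values on only 2 arrays, with a mean of -5.499, and was not counted. Its other 2 values stood at the lower limit. The first 3 arrays lay close together, and array 4 was nearer to 0.

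Next came AT3G01270 with AT5G15110, whose 2 probes averaged -5.64 and -5.09. AT3G07850 with AT3G14040 had 3 member probes at -5.81, -5.75 and -4.30. AT5G38760 with AT5G53820 had 2 at -5.76 and -4.53, the lower of them measured on 3 arrays. In the last 2 of these sets, probes listing the same genes thus differed by more than the median SD over arrays given above. AT3G01230 with AT3G01240 had the narrower range of 3 probes, at -5.18, -4.98 and -4.84.

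AT3G28980 with AT5G39870 was measured on 3 arrays, at -5.88, -4.73 and -4.71. AT1G23240 with AT1G23250 was at -5.48, -4.76, -5.57 and -3.95. AT1G30350 with AT5G09280 was at -5.21, -4.67, -5.58 and -3.96. In the last 2 of these sets, arrays 1 and 3, which held apetala3 in channel 1, were lower than arrays 2 and 4. AT1G47980 with AT3G62730 was at -5.73, -4.48, -5.39 and -3.45, with arrays 1 and 3 again the lower ones.

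The other sets of the 25 lowest had means between -4.94 and -4.29. AT1G26710 with AT1G26720, again direct neighbours, had 2 probes at -4.85 and -4.68. AT1G63060 with AT5G07330 was at -4.03, -4.89, -5.45 and -4.26, and was 1 of 6 probes in which array 1 was nearest to 0. AT3G23540 with AT4G14290 and AT4G17150 was at -5.07, -4.55, -5.52 and -2.95, and AT1G23830 with AT1G23840 and AT1G23850 at -5.22, -4.64, -5.19 and -2.23. In these last sets array 4 was more than 1.5 nearer to 0 than any other array. AT4G17690 with AT5G47000 was at -4.34, -4.54, -5.26 and -3.65.

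Most sets rested on 1 probe. A single member probe stood for 94 sets, 7 sets had 2 member probes, and 5 sets had 3 or more. The 12 sets with several member probes held 32 of the 126 probes. The set with the most was AT3G28750 with AT5G39880, whose 5 probes averaged between -5.07 and -4.42. AT2G03740 with AT2G03850 had 4 member probes between -4.94 and -4.19 and 1 more probe at -2.55.

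A symbol other than the locus was known for 20 of the 229 genes. These genes fall in 12 sets with 15 member probes, and the other 94 sets carry locus names alone, to which no function is given here.

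The lowest sets with a symbol concern pectin, the gel of the plant cell wall. PPME1 is a pectin methylesterase of the pollen tube, an enzyme that removes methyl groups from pectin and so sets the stiffness of the tube wall. The 2 probes listing PPME1 and AT5G07410 were at -6.24, -5.32, -4.80 and -4.58 (mean -5.24 ± 0.74, SD, n = 4) and at -5.11, -4.42, -5.09 and -3.66 (mean -4.57 ± 0.69, SD, n = 4). The 2 probes listing PPME1, AT5G07410 and AT5G61680 averaged -5.11 and -4.40. All 4 probes with PPME1 were thus lower than -3.3 on every array, and they share genes, so they are not independent measurements. A probe listing AT5G61680 alone was at -1.59, -1.31, -1.83 and -0.67, nearer to 0 than any of these on each array.

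AT59 is a pectate lyase of pollen, an enzyme that cuts pectin. The 2 probes listing AT59 and AT2G02720 were at -5.16, -4.34, -4.86 and -3.67 (mean -4.51 ± 0.65, SD, n = 4) and at -4.32, -4.17, -3.93 and -1.92 (mean -3.59 ± 1.12, SD, n = 4). In the second probe, 3 arrays lay within a narrow range and array 4 stood apart.

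SWEET proteins carry sugars across membranes, and in anthers they feed the developing pollen. AtVEX1 was first described as expressed in the vegetative cell of pollen, and SWEET8, also known as RUPTURED POLLEN GRAIN1, is needed for the pollen wall. The probe listing AtVEX1, SWEET4 and SWEET8 was at -3.99, -3.71, -3.53 and -3.62 (mean -3.71 ± 0.20, SD, n = 4), the lowest SD among the 126 probes. The probe listing SWEET13 and SWEET14, a pair of sucrose carriers, was at -3.49, -3.43, -3.42 and -2.71 (mean -3.26 ± 0.37, SD, n = 4). The probe listing SWEET6, SWEET7 and SWEET8 was at -3.43, -2.92, -3.30 and -2.71 (mean -3.09 ± 0.33, SD, n = 4).

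The other SWEET probes, listing 1 gene or several, were spread from -4.79 for SWEET9 alone to 0.37 for SWEET10 alone. Of 10 measured multi-gene SWEET probes, 3 were at least 8-fold lower and 6 at least 2-fold lower, with a median of -1.75. Over all multi-gene probes, 1.75% and 7.7% were. This family and those below were counted because each holds a member, so at least 1 lower probe was fixed in advance. The probe listing AtVEX1 and SWEET4 without SWEET8 averaged -1.97. The probe listing SWEET6 and SWEET7 without SWEET8 averaged -0.25 and was above 0 on array 4. SWEET8 has a probe of its own, which averaged -3.97 ± 0.96 (SD, n = 4). The probe listing SWEET10 with SWEET13 and SWEET14 averaged -2.29, and the probe listing SWEET10 alone averaged 0.37.

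CHX proteins are cation/proton exchangers, and CHX21 and CHX23 are known for their part in pollen tube guidance. The probe listing CHX21 and CHX23 was at -3.60, -2.89, -3.05 and -2.50, with a mean of -3.01 ± 0.46 (SD, n = 4), just past the threshold. The other probe listing the same pair was at 0.10, -0.34, -0.14 and 0.26. The values of these probes did not overlap, although both list the same genes. Of 4 measured multi-gene CHX probes, 1 was at least 8-fold lower and 2 at least 2-fold lower, with a median of -1.49. The shares over all multi-gene probes were 1.75% and 7.7%, and the 1 probe is the member that brought the family in. CHX15 with CHX19, at a mean of -2.94, lay just short of the threshold. The probe listing CHX15 with chx28 was above 0 on each array, at 0.60, 1.39, 0.64 and 1.86.

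ANX1 and ANX2 are receptor kinases that keep the growing pollen tube from bursting, and FER, or FERONIA, is their relative, known for pollen tube reception in the ovule and active in many tissues. The probe listing ANX1, ANX2 and FER was at -4.05, -3.88, -4.03 and -2.47, with a mean of -3.61 ± 0.76 (SD, n = 4). The probe listing FER alone was at 0.07, -0.0025, 0.07 and 0.07, with a mean of 0.05 ± 0.04 (SD, n = 4). Every array thus put the shared probe far below 0 and the FER probe at about 0.

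Tetraspanins are small membrane proteins that cluster other proteins. The probe listing TET11 and TET12 was at -4.55, -2.85, -3.15 and -2.79, with a mean of -3.34 ± 0.83 (SD, n = 4), and array 1 was lower than the other three. The probe listing TET12 alone averaged -1.34 ± 0.58 (SD, n = 4). Of 8 measured multi-gene tetraspanin probes, 1 was at least 8-fold lower and 2 at least 2-fold lower, with a median of 0.07. The shares over all multi-gene probes were 1.75% and 7.7%, and the 1 probe is again the member itself.

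Serine carboxypeptidase-like proteins are relatives of protein-cutting enzymes, several of which act as acyltransferases. The probe listing scpl36 and scpl37 was at -4.12, -3.41, -4.38 and -3.21, with a mean of -3.78 ± 0.56 (SD, n = 4). The probe listing both with scpl38 averaged -1.41, while the probe listing scpl38 alone averaged -3.68. Of 16 measured multi-gene probes of this family, 1 was at least 8-fold lower and 6 at least 2-fold lower, and their median was 0.02. The shares over all multi-gene probes were 1.75% and 7.7%, and the 1 probe is again the member itself. LEA stands for late embryogenesis abundant, a group of proteins that protect drying cells. The probe listing LEA and AT4G39130 was at -4.05, -3.36, -4.45 and -2.87 (mean -3.68 ± 0.70, SD, n = 4), and another probe of the same pair averaged -2.19.

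Families could be assigned from gene symbols alone, so most member sets fall in none. Of 26 families searched by keyword, 15 had a measured probe on which every gene carried the keyword, and 2 of these held members. Over all multi-gene probes, 1.75% passed the rule. The transporter family had 17 such probes with 4 members and a median of -1.52, and the protease family had 24 with 1 member and a median of 0.07. Pectinesterases had 4 members among 11 probes when any listed gene could carry the keyword, with a median of -0.67, and pectate lyases 2 among 2. By symbol, transcription factors had 31 probes with 0 members and a median of -0.12. Glycosyl hydrolases had 24 probes, expansins 9, cytochromes P450 5 and histones 5, all with 0 members and medians between -0.10 and 0.24. The 94 member sets with locus names alone could not be counted in any family. A count of 0 therefore does not show that a family is absent from the 126 probes.

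Other probes of the same gene sets gave a measurement that the rule had not selected. Member sets had 40 such probes, of which 37, in 34 sets, were measured on at least 3 arrays. Since a probe past the rule would itself be a member, these 37 lie above -3 by construction. They ran from -2.69 to 1.24 with a median of -0.03. Of the 37, 11 (29.7%) were at least 2-fold lower with every value below 0, beside 7.7% of all multi-gene probes, and 26 had a mean above -1. In 24 sets at least 1 probe was thus above -1 while another was at -3 or lower.

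The widest gap within a set was that of AT3G28790 with AT3G28830. Its member probe was at -5.36, -4.83, -5.12 and -4.45, and its other probe was at 0.56, 2.76, -0.26 and 0.80. AT2G03980 with AT2G04020 followed, with a member probe at -4.89, -4.23, -4.81 and -3.21 and another at 1.66, 0.86, 1.37 and 1.06. The values of the 2 probes did not overlap in either set. AT1G63060 with AT5G07330 had a member probe at a mean of -4.66 and another at 0.66, whose SD over arrays reached 0.92.

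Other sets had a second probe very near 0. For AT2G23900 with AT3G48950 the member probe averaged -3.92 ± 0.51 and the other -0.0042 ± 0.15 (SD, n = 4 each). For AT1G70640 with AT3G26510 the member probe averaged -3.92, and the 2 other probes -0.13 and -0.01. AT1G51410 with AT5G19440 had a member probe at -3.52 and others at 0.01 and 0.56. In 8 sets another probe lay between -3 and -2, the lowest of them that of AT5G07420 with AT5G07430 at -2.69, beside a member probe at -4.33. AT2G47050 with AT3G62180 had probes on both sides, with a member probe at -4.12 and others at -2.65 and 0.44. Which transcripts each probe pairs with cannot be read from these data, because the probe sequences were not used here.

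Probes listing 1 of the 229 genes alone were fewer. They numbered 29 for 28 genes, and 28 of them, for 27 genes in 24 member sets, were measured on at least 3 arrays. Of these 28, 9 (32.1%) were at least 2-fold lower with every value below 0, beside 5.92% of all single-gene probes, and 3 (10.7%) were at least 8-fold lower, beside 1.47%. Their median was -0.01, and 18 lay between -0.75 and 0.75.

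The 3 lowest were AT3G02480, SWEET8 and AT5G39870. AT3G02480 alone was at -4.24, -4.24, -4.36 and -3.06, and the probe listing it with AT5G38760 and AT5G53820 was at -4.94, -4.42, -5.07 and -3.59. AT5G39870 alone was at -3.86, -5.08 and -2.37 on the 3 arrays that measured it, and its value on array 1 stood at the lower limit. The member probe listing AT5G39870 with AT3G28980 averaged -5.11, but the other probe listing this pair was at -0.12, 0.26 and 0.18 on the 3 arrays that measured it. The value of that other probe on array 2 stood at the upper limit.

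Some other genes of member sets had a probe of their own at or above 0, and others one between 0 and the value of their set. AT5G44690 alone was at 2.02, 2.19, 2.05 and 1.32, the only one of the 28 above 0.75, while the probe listing AT4G20160 and AT5G44690 was at -2.23, -3.56, -4.56 and -2.27. AT3G28770 alone was at 0.69, 0.67, 0.53 and 0.29, while the probe listing it with AT3G28810, AT3G28820, AT3G28980 and AT5G48575 was at -3.96, -4.79, -5.61 and -3.18. AT3G53070 and AT3G53050 have a probe each, at -2.30 ± 0.25 and -1.64 ± 0.38 (SD, n = 4 each), while the probe listing both with AT3G53075 and AT3G53080 averaged -4.01. AT5G52160 alone averaged -1.43 ± 1.06 (SD, n = 4), beside -4.07 for the probe listing it with AT5G07230 and AT5G62080. AT5G09280 alone, at a mean of -2.01 ± 0.28 (SD, n = 4), lay between 0 and the -4.85 of the probe listing it with AT1G30350.

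Some member sets lie next to each other in the genome. The order of protein-coding genes was taken from the TAIR10.1 gene table, which matched all 229 genes, and no coordinates are given because the build behind the array annotation is unstated. The longest group of member genes ran from AT3G28750 to AT3G28840 and held 8 of the 10 protein-coding genes in that stretch, listed by 6 sets with 13 member probes. Their means lay between -5.80 and -4.30. The stretch also had 3 probes near or above 0, listing AT3G28770 alone (0.54), AT3G28760 alone (0.65) and AT3G28790 with AT3G28830 (0.96). From AT5G46930 to AT5G47000, 6 of 8 genes were member genes, in 4 sets with probes between -4.45 and -3.19. From AT5G07230 to AT5G07490 there were 6 of 28, in 7 sets with 9 probes between -5.24 and -3.21, among them the sets with PPME1. How often such groups arise among all measured sets was not computed, so nothing is read from their sizes. A gene was counted because a member probe lists it with others, and it need not itself be reduced.

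Sets that hold neighbouring genes made up no larger share of member sets than of all sets. Directly adjacent genes occurred in 19 of 106 member sets (17.9%), beside 1107 of 5553 measured sets (19.9%). Genes at most 10 places apart occurred in 25 member sets (23.6%), beside 1521 of all sets (27.4%). Of those 25 member sets, 11 were among the 25 lowest, and 14 were among the other 81. Several of the 11 list genes of the stretch from AT3G28750 to AT3G28840 and some share genes, so they are not separate cases. Chromosome 3 held 24.9% of member genes, beside 20.8% of the genes of all sets, and chromosome 1 held 22.7%, beside 26.8%. Sets of 2 genes made up 81 of the 106 (76.4%), beside 3669 of 5576 (65.8%). By shared genes the member sets fell into 97 groups, of which 8 joined more than 1 set.

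The 2 kinds of probe on the array differed in how often they passed. Of the multi-gene probes whose ID begins with GP, 18 of 46 did (39.1%), beside 110 of 7287 whose ID begins with A (1.51%). Over all gene probes the counts were 47 of 370 (12.7%) and 373 of 25550 (1.46%). The labels give no meaning of GP and no account of how those probes were selected for the array. Among the 126 members, 17 had a GP probe ID and a median of -4.94, and 109 had an A ID and a median of -3.71. Both kinds were present in 9 sets, and the GP probes were lower in 7 of them. Of the 25 lowest sets, 11 held a GP probe.

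Probes near the threshold had much the same values on either side of it. Just inside lay AT1G32250 with AT3G03000 at -3.07, AT4G26830 with AT5G55180 at -3.02, AT1G03050 with AT4G02650 at -3.02, CHX21 with CHX23 at -3.01 and AT1G15970 with AT1G80850 and AT5G57970 at -3.001. Just outside lay AT1G06990 with AT5G45960 at -2.99, AT3G03080 with AT5G37960 at -2.98, AT3G15720 with AT4G35670 and AT5G27530 at -2.98, AT1G52315 with AT1G79910 and AT4G32350 at -2.96, and CHX15 with CHX19 at -2.94. The requirement of a value below 0 on each array removed 0 probes, and 7 with a mean of -3 or lower had values on fewer than 3 arrays. Among these 7, those whose ID begins with GP had their missing values at the lower limit. Each of the others rested on 1 array and had values at the upper limit, the opposite side.

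Across all gene probes, the turned arrays correlated in pairs with Pearson r between 0.62 and 0.82, a description over probes that share the same RNA. Of 21 tapetum and pollen wall genes listed as markers, 5 probes were measured, from -6.08 to -0.65 with a median of -3.11, and 4 were at least 2-fold lower. They stand for ATA27, ATA20 and SHT alone. The probes of ATA20 averaged -3.74 and -1.77, and that of SHT -3.11. The probes of ATA27 differed, with a mean of -6.08 for one and 0.39, 0.12 and -2.45 on arrays 2 to 4 for the other. The direction was set from this list, so its sign is no evidence of the direction. Of 15 pollen and pollen tube genes, 3 probes were measured and 2 were at least 2-fold lower, both listing VGD1 and VGDH1. The other, for TUA1, averaged -0.44. The 1 nectary probe, for SWEET9, averaged -4.79. The 3 carpel and ovule probes, all for INO, lay between -0.06 and 0.48, and the 3 green tissue probes between 0.30 and 0.39. No measured probe stood for the petal list, which includes AP3 and its partner PI, so the genotype was not checked against its own gene. Ratios give no levels, so the presence of a tissue cannot be read from them, and the part of these marker differences in the values of the member probes was not tested.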

How the data were processed

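The deposited value of a probe on an array is a log2 ratio of its 2 channels, which the authors normalized as in an earlier publication, per the labels. The labels used here give no scanner, background correction, centring or numerator. The log2 scale was read from the values, which stop at the log2 of 100 on either side. Values above 6.6438 in size were treated as not measured. Arrays 1 and 3 were multiplied by -1, and the mean over arrays was taken for each probe, with SD over arrays. Probe genes came from the platform annotation and symbols from the TAIR10.1 gene table. Python 3.11.15 with pandas 2.3.3 and numpy 2.4.6 was used. The selection code was tested on simulated data with no true value near the threshold. That checks the code and not the selection in these data. The number of arrays limits the precision.

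The members and the gene lists were chosen with earlier results of these data known. No test was run, since the only contrast chose the members. The sets named were the 25 lowest, those with several member probes, up to 4 of each family, the 5 probes on either side of the threshold, and those with a probe above -1. The sets with TET11, ANX1 and LEA, those compared with probes of single or overlapping genes, and those singled out for 1 array were named after their values were seen. Protein and promoter sequences were not used here. Alternatives covered the arrays, limits, centring, threshold and orientation. The values of 1 set with a symbol are not reported here.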

Additional observations from a re-analysis of the deposited data

Results flagged for a closer look

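In 12 of the 118 member probes measured on all 4 arrays (10.2%), 1 array stood apart from the other three by more than Dixon's 95% critical value. The 1 in 20 behind that value, or 5.9 probes, holds for separate probes and for arrays that all vary alike. Here array 4 was highest in 102 of the 118 probes and some probes share genes, so the count is not set against chance. The share over all multi-gene probes was not computed. Array 4 was the one apart in 11 of the 12 probes, always nearer to 0. It was at -3.20 for AT1G61860 with AT3G20530, where the others lay between -4.67 and -4.47. It was at -3.22 for AT1G66210 with AT1G66220, and at -2.64 for AT5G16700 with AT5G17500. It was at -2.62 for AT2G47480 with AT3G62640, and at -2.83 for AT2G24370 with AT4G31230 and AT5G20310. For ANX1, ANX2 and FER it was at -2.47, where the others lay between -4.05 and -3.88. For the second probe of AT2G02720 with AT59 it was at -1.92, where the others lay between -4.32 and -3.93. It was at -2.71 for AT3G59710 with AT4G20760, AT5G51030 and AT5G61830, and at -2.22 for AT1G12064 with AT1G12070 and AT1G62450. It was at -2.71 for SWEET13 with SWEET14, and at -2.59 for AT3G22750 with AT4G14780. In the remaining probe, AT2G31210 with AT2G31215, array 3 was lowest at -3.89, where the others lay between -2.98 and -2.86. Array 4 also had the median nearest to 0 over all members, and its part in these 11 probes was not tested.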

How the results depend on the processing

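With each array left out in turn, the probes past the rule numbered 111 to 142 in 94 to 127 sets, and those without array 4 included 119 of the 126. The sets with another probe above -1 numbered 20 to 27, and the probes at 3 or higher stayed at 0. A threshold of -2 gave 258 probes, 228 sets and 54 sets with another probe above -1, and a threshold of -4 gave 60, 41 and 11, as the looser or stricter limit itself requires. Keeping values at the 100-fold limit gave 132 probes and 15 at 3 or higher. Arrays 1 and 3 alone gave 158 probes, 119 of them members, with 1 at 3 or higher, and arrays 2 and 4 alone gave 103, 99 of them members, with 9 at 3 or higher. The cause of these higher counts was not tested. Centring each array gave 134 probes, the median over arrays 127, and all 4 arrays required 118. Of 528 values of 53 named sets under these alternatives, 525 moved by less than 1 SD, 0 changed sign and the highest was -2.50. The other 3 were AT1G15270 with AT3G16040 (-4.17, limits kept), AT3G28980 with AT5G39870 (-5.88, arrays 1 and 3 alone) and AT5G38760 with AT5G53820 (-4.53, all 4 arrays required). Each of these sets has a member probe measured on 3 arrays. Members lie below 0 on each measured array, so leaving arrays out could not change a sign. For a probe on all 4 arrays it could not move the mean by 1 SD either. Both counts were thus largely fixed in advance and are no measure of stability. The count of sets with another probe above -1 under each alternative was added after seeing the data. No paired analysis was possible because the arrays form 1 group, so no replicate number links 2 groups, and the pairing of the genotypes within an array is already part of each ratio. Intensities were not analysed here, so signal over background is unknown.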

Other observations

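Another 42 measured probes share some genes with a member set without listing the same set. They ran from -2.43 to 2.41 with a median of -0.15. Since member probes were left out, these 42 lie above -3 by construction. Of them, 12 (28.6%) were at least 2-fold lower with every value below 0, beside 7.7% of all multi-gene probes. The 2 probes listing AT1G24420, AT3G30280 and AT4G15390 were at 2.92, 2.58, 2.56 and 1.59 and at 0.22, 0.08, 0.47 and 0.14. The member probe listing AT3G30280 and AT4G15390 with AT3G26040 and AT5G47950 was at -4.44, -3.58, -4.83 and -3.71. The probe listing AT3G14040 with AT1G54120 and AT3G14060 was at 1.03, 0.76, 1.496 and 1.499, where the 3 member probes listing AT3G14040 with AT3G07850 averaged between -5.81 and -4.30. These sets were picked after their values were seen.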
